A study of Mus musculus with 20 samples.

Results

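The dendritic cells of the lasered mouse retina were the 108 wells that the authors' annotation of retinal cells names DCs. They made up 108 of the 389 annotated wells of lasered retina and of the 511 annotated wells of retina in all, and 26 of them were taken 7 days and 82 of them 3 days after the lesion. They were set against 194 wells that the annotation names microglia and 87 wells of a joint class that pools monocytes, lymphocytes and granulocytes, all from the same libraries. C57BL/6 mice aged 8 weeks were kept free of specific pathogens, and laser burns were set in their retinas, a lesion labelled CNV (choroidal neovascularization, the growth of vessels from beneath the retina) and given in 4 libraries at day 7 and 4 at day 3. Another 4 libraries came from retinas of such mice without a lesion. Single CD45+ cells, that is cells of the blood lineage, were sorted after staining for CD45 and CD11b, and their transcripts were counted with mCEL-Seq2, which tags each molecule before amplification. A library holds 192 wells with 1 sorted cell each. A plate holds 384 wells, so libraries that share a prefix and a day may come from the same plate. The labels do not tie libraries to mice, so a spread between libraries may be technical.

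Dendritic cells take up material in tissues, cut it into peptides and present these to T cells. Conventional dendritic cells arise from bone marrow precursors under the cytokine that binds the receptor Flt3, and they load peptides onto MHC class II molecules, whose genes are switched on by the regulator Ciita. One kind, which carries Xcr1 and Clec9a, is known for presenting engulfed cell material on MHC class I, and another, which carries lectins such as Cd209a in the mouse, for presenting to helper T cells. Mature dendritic cells of either kind carry the chemokine receptor Ccr7, which guides them to lymph nodes, and the healthy retina is known to hold very few dendritic cells beside its microglia, the resident macrophages of nervous tissue.

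Levels below are CPM, transcripts of a gene in a sum of wells after that sum is scaled to 1e6 transcripts. For each class, the wells of the libraries that share a prefix in their titles (P1 or P2) and a day were summed, which gave 4 sums, and these are listed as P1 and P2 of day 7, then P1 and P2 of day 3. The smallest dendritic cell sum, P2 of day 7, held 60382 transcripts from 10 wells, so low levels in it rest on few transcripts. A gene is called higher or lower in dendritic cells where the ratio of (CPM + 5) was at least 2-fold the same way in all 4 sums. The annotation was itself made from these transcripts, so the differences between classes in the level of a gene are a description and carry no test. Library totals ran from 371329 to 1130863 transcripts in the lasered retinas. All libraries use the same 192 well barcodes, and 0 annotated wells were identical to another.

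No well of the retinas without a lesion was named a dendritic cell, 0 of 122 annotated wells, which allows a share of up to 2.46% when 3 wells are taken as the limit of a count of 0. At day 3 the share was 82 of 209 annotated wells, or 39.2% (95% Wilson interval 32.9 to 46.0%), and at day 7 it was 26 of 180, or 14.4% (10.1 to 20.3%). These intervals cover counting error only. By library, dendritic cells made up 11.4, 18, 15.4 and 11.1% of annotated wells at day 7, against 32.4, 32.4, 39.5 and 44.0% at day 3. The ranges of both days did not overlap, nor did they within the libraries of prefix P1 (the first 2 values of each day) or of P2. The mean was 14% ± 3.34 at day 7 and 37.1% ± 5.70 at day 3 (SD, n = 4 libraries each), a difference of -23.1 percentage points (two-sided exact permutation test, p = 0.0286, the smallest p that 4 against 4 allow; 0.0476 after Benjamini-Hochberg adjustment over 5 tests). Permuted within prefix the difference did not pass (exact permutation test, p = 0.0556, adjusted 0.0714). The tests over libraries count those that may share a plate as separate units. Summed by prefix, with 2 sums a day, the means were 14.3% at day 7 and 37.6% at day 3, and no test was run on these sums. With any 1 library left out the smallest possible p is larger and the adjusted p was 0.0714. These shares are shares of sorted and annotated wells, so the sort and the choice of wells bear on them.

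The annotated wells include microglia, which are resident. Of the wells of dendritic cells and the joint class alone, dendritic cells made up 27.8, 45.8, 54.5 and 28.6% at day 7, against 68.8, 48.0, 57.7 and 72.1% at day 3. The ranges overlapped. The means were 39.2% ± 13.2 at day 7 and 61.6% ± 11 at day 3 (SD, n = 4 libraries each), and the difference of -22.5 points did not pass the two-sided exact permutation test (p = 0.0571, adjusted 0.0714). Summed over libraries, 26 of 67 such wells were dendritic cells at day 7, or 38.8% (28.0 to 50.8%), and 82 of 128, or 64.1% (55.5 to 71.9%), at day 3.

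Wells of dendritic cells held more transcripts than those of the other classes. The classes were named from these same counts. The tests of depth assume that the total of a well had no part in the naming, which was not tested. They also count each library as a separate unit, although libraries of the same prefix and day may share a plate. Their p holds only if such libraries are independent, and no test of depth was run by prefix and day. The median of dendritic cells was 9446 transcripts and 2836 genes, against 4163 transcripts and 1474 genes in microglia and 5296 transcripts and 1788 genes in the joint class. The ratio of library medians to microglia averaged 0.84 ± 0.55 on the log2 scale (SD, n = 8 libraries), or 1.79-fold, and it was above 0 in 8 of 8 libraries (two-sided exact permutation test of signs, p = 0.00781, the smallest it can give; adjusted 0.0195). The ratio to the joint class was 0.57 ± 0.50, or 1.48-fold, again higher in 8 of 8 libraries (exact permutation test of signs, p = 0.00781, adjusted 0.0195). The library medians of dendritic cells, taken on the log2 scale and turned back, were 7882, 7063, 5142 and 4400 transcripts at day 7, against 4815, 11991, 12963 and 10073 at day 3. The days overlapped through 1 library of day 3, and their difference of -0.65 on the log2 scale did not pass (exact permutation test, p = 0.143). A share of wells with a transcript of a gene depends on this depth, so the shares of class markers are also given after each well was thinned to 2000 transcripts, which kept 102 dendritic cells, 163 microglia and 80 wells of the joint class.

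**Figure D1:**
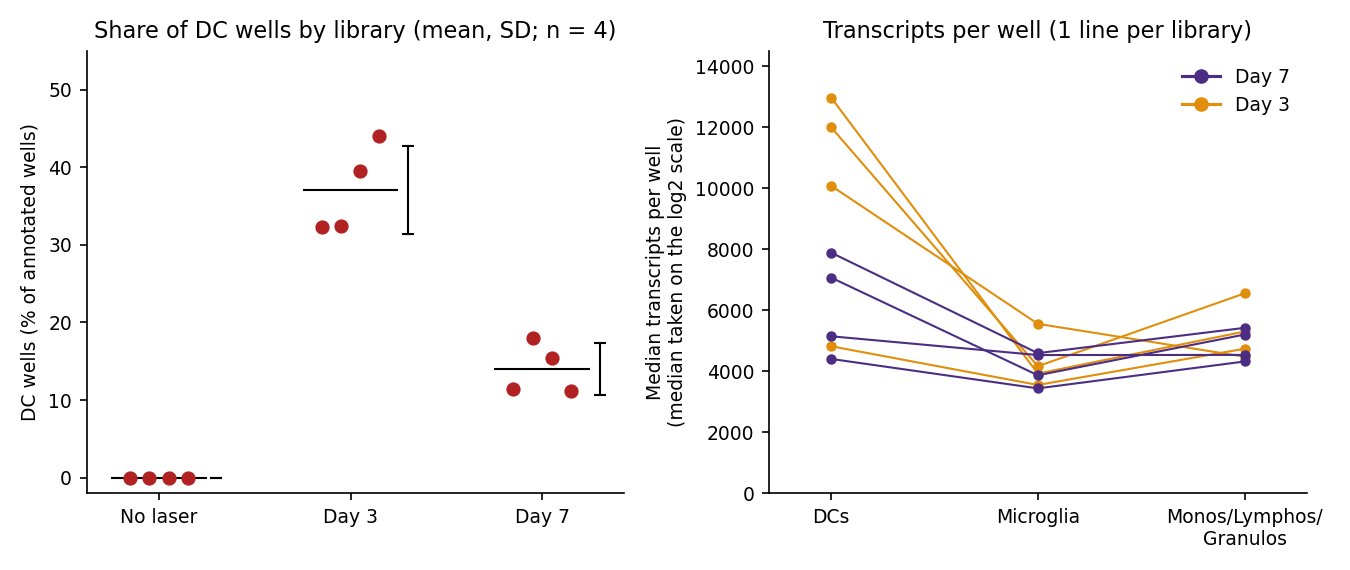
Left, the share of annotated wells named dendritic cells in each library (percent; points are libraries, horizontal lines means, bars 1 SD, n = 4) of retinas without a lesion, at day 3 and at day 7; the 4 libraries of day 7 lie at 11.1 to 18% and those of day 3 at 32.4 to 44.0%. Right, the median number of transcripts per well, taken on the log2 scale, in dendritic cells, microglia and the joint class of each laser library, with a line for each library; dendritic cells lie above both other classes in 8 of 8 libraries.

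The 7 genes taken first are known from dendritic cells, and all 7 were higher than in microglia while 6 of 7 were higher than in the joint class. As the wells were named from these same transcripts, this is no check of the label. Among all genes with a mean of at least 20 CPM in either class of the pair, 4.65% were called higher than in microglia (310 of 6671) and 1.41% higher than in the joint class (94 of 6664). Flt3 had 376, 282, 306 and 192 CPM in dendritic cells, against 0, 4.65, 0 and 0 CPM in microglia and 41.9, 37.4, 115 and 26.6 CPM in the joint class. Every dendritic cell sum was above every sum of the other classes. A transcript of Flt3 was seen in 82 of 108 dendritic cells (75.9%), against 1 of 194 microglia (0.515%) and 14 of 87 wells of the joint class (16.1%). After thinning these shares were 31.4% of dendritic cells, 0% of microglia and 8.75% of the joint class.

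The other 6 markers span proteases, enzymes and receptors. Napsa, an aspartic protease, had 259, 746, 532 and 601 CPM in dendritic cells, against at most 12.4 CPM in any microglia sum and 24.9 to 238 CPM in the joint class. Plbd1, a phospholipase B-like protein of lysosomes, had 722, 514, 806 and 664 CPM in dendritic cells, against 4.65 to 29.0 CPM in microglia and 41.9 to 378 CPM in the joint class. Kmo, the kynurenine hydroxylase of tryptophan breakdown, had 149, 232, 212 and 225 CPM in dendritic cells, against at most 6.19 CPM in microglia and 24 to 73.8 CPM in the joint class. For these 3 genes no sum of either class reached the lowest dendritic cell sum, and the nearest was Napsa in the joint class with 238 CPM. Wdfy4, which is needed for presentation of engulfed cell material on MHC class I, had 439, 365, 391 and 302 CPM in dendritic cells, against 18.1 to 49.5 CPM in microglia and 24 to 59.8 CPM in the joint class. Klrd1, the lectin-like receptor CD94 that natural killer cells also carry, was the exception. It had 290, 248, 296 and 317 CPM in dendritic cells and 216, 325, 73.8 and 99.7 CPM in the joint class, which overlap, while microglia held at most 6.19 CPM.

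The wider list of genes of conventional dendritic cells, which also holds Flt3, Napsa, Kmo and Wdfy4, was counted next. Of its 12 genes, 10 were higher than in microglia and 8 higher than in the joint class, against 4.65% and 1.41% of all genes. The medians were 4.05 and 2.17 (log2 ratio of CPM + 5), against medians over all genes of 0.01 and -0.03. Zbtb46, a transcription factor restricted to conventional dendritic cells among myeloid cells, had 47.0, 16.6, 75.3 and 37.5 CPM in dendritic cells, against at most 3.10 CPM in microglia, and in the joint class it was at 0 in 3 sums and at 24.9 CPM in the other, which overlaps. Kit, the receptor of stem cell factor, had 117, 166, 136 and 122 CPM in dendritic cells, was at 0 in all microglia sums and had 12 to 65.6 CPM in the joint class. Kit was seen in 61 of 108 dendritic cells and in 0 of 194 microglia, and after thinning in 15.7% of dendritic cells and 0% of microglia. Dpp4, a surface peptidase, had 62.7, 166, 198 and 149 CPM in dendritic cells, against at most 6.39 CPM in microglia. Itgax, the integrin chain CD11c, had 290, 315, 678 and 568 CPM in dendritic cells, against 52.6 to 94.2 CPM in microglia and 77.9 to 304 CPM in the joint class, whose range overlaps.

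**Figure D2:**
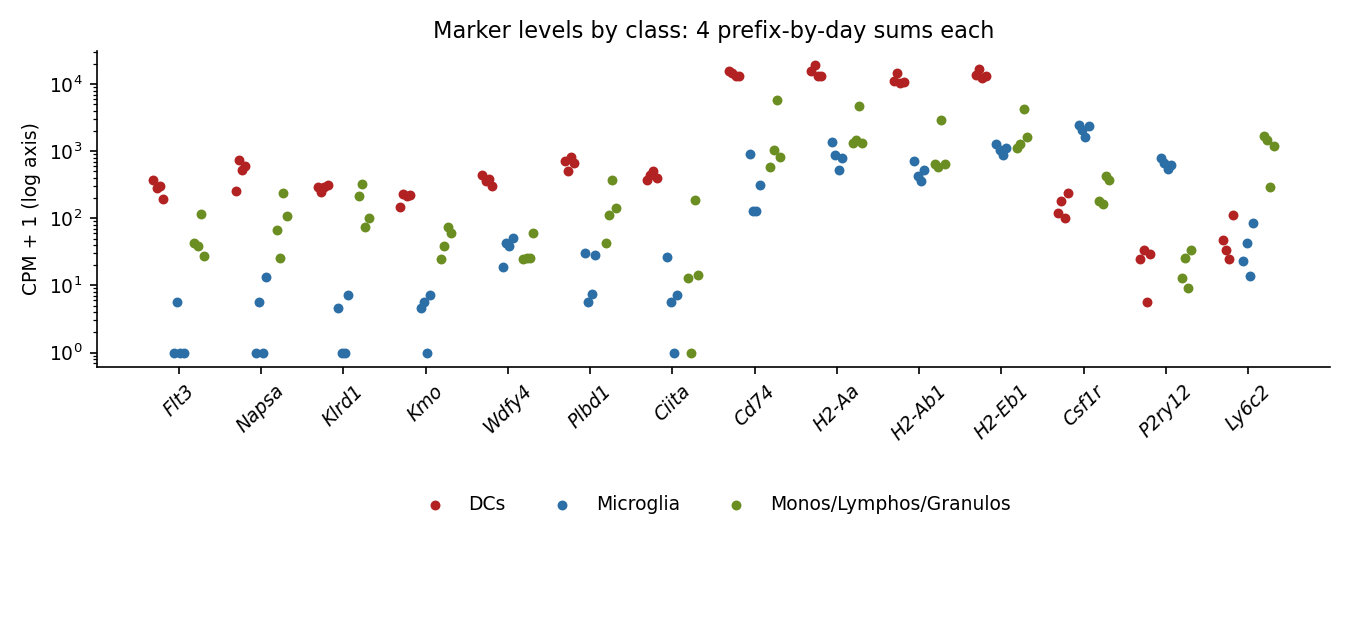
Level of dendritic cell genes, MHC class II genes and genes of other cell types (CPM + 1, log axis) in dendritic cells, microglia and the joint class; points are the 4 sums of each class. The sums of Flt3 and Ciita in dendritic cells lie at 192 to 376 and 368 to 513 CPM, above all sums of the other classes.

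Genes of MHC class II presentation, which load and carry peptides for helper T cells, were for the most part higher in dendritic cells. Of the 13 genes of that list in the tables, 10 were higher than in microglia and 9 higher than in the joint class. Of all genes 4.65% and 1.41% were. The median log2 ratios of the list were 2.98 and 3.44. The chains H2-Aa, H2-Ab1 and H2-Eb1 were among them. H2-Aa had 15457, 19209, 13054 and 13284 CPM in dendritic cells, against 1363, 871, 530 and 778 CPM in microglia and 1309, 1462, 4671 and 1326 CPM in the joint class. H2-Ab1 had 10980, 14513, 10333 and 10644 CPM in dendritic cells, against 715, 433, 364 and 533 CPM in microglia and 643, 587, 2955 and 652 CPM in the joint class. Cd74, the invariant chain that guards the groove of class II molecules until they reach the endosome, had 15914, 14417, 13288 and 13162 CPM in dendritic cells, against 915, 126, 128 and 316 CPM in microglia and 589, 1051, 5722 and 806 CPM in the joint class. For each of the 3 genes the lowest dendritic cell sum was above the highest sum of the other classes.

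One sum of the joint class, P1 of day 3, was the highest of its class for each of these genes. Among the 87 wells of the joint class, 9 are called DCs by a second annotation column, a cell type by signature, 5 of them at day 3. Their part in that sum was not tested. H2-Aa was seen in 108 of 108 dendritic cells but also in 168 of 194 microglia and 79 of 87 wells of the joint class, and after thinning in 100% of dendritic cells, 62.6% of microglia and 78.8% of the joint class. Cd74 was seen in 107 of 108 dendritic cells, against 92 of 194 microglia and 57 of 87 wells of the joint class, and after thinning in 100%, against 23.9% of microglia and 43.8% of the joint class. The regulator Ciita was sparser outside dendritic cells. It had 368, 447, 513 and 394 CPM in dendritic cells, against 25.4, 4.65, 0 and 6.19 CPM in microglia and 12, 0, 189 and 13.3 CPM in the joint class. A Ciita transcript was seen in 90 of 108 dendritic cells, against 7 of 194 microglia and 9 of 87 wells of the joint class. After thinning it was seen in 51.0% of dendritic cells, against 1.23% of microglia and 6.25% of the joint class.

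The peptide editors of class II, H2-DM, were higher too. H2-DMa had 611, 663, 598 and 469 CPM and H2-DMb1 643, 696, 720 and 655 CPM in dendritic cells, against at most 134 and 173 CPM in microglia and at most 246 and 189 CPM in the joint class. H2-Oa, a subunit of the brake on H2-DM, had 368, 398, 296 and 249 CPM in dendritic cells, against 9.31 to 44.7 CPM in microglia and 6.65 to 82.0 CPM in the joint class. The proteases of the pathway went the other way against microglia. Lgmn, the endopeptidase legumain, had a pooled level of 138 CPM in dendritic cells and 1607 CPM in microglia, and Ctss, the cathepsin that trims the invariant chain, 2132 and 5376 CPM, with Lgmn called lower and Ctss not called. The list of costimulation and T cell contact, which holds Cd86, Cd80 and Cd40, was measured as well. Of its 13 genes, 9 passed the filter on low values, and 1 of these was higher than in microglia and 1 higher than in the joint class, counts too small to set against the 4.65% and 1.41% of all genes. Cd86 had 78.3, 99.3, 122 and 67.6 CPM in dendritic cells, against 86.9, 116, 83.0 and 102 CPM in microglia, which overlap.

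Since the class II genes were higher together, the promoters of 3 of them are shown, H2-Aa, H2-Eb1 and H2-DMb1, each from 250 bases before to 50 bases after the start site as RefSeq gives it on GRCm38.p6, all on chromosome 17. Class II promoters are known for an X box bound by the RFX complex and a Y box bound by NF-Y, the platform on which Ciita acts. Capitals mark the Y box letters ATTGG or, on the other strand, CCAAT, and letters AACTGATG of the X box, or CATCAGTT on the other strand; neither motif overlaps the other. The X box letters were chosen after these promoters had been read. H2-Aa lies on the minus strand at chr17:34287774-34288073, H2-Eb1 on the plus strand at chr17:34305617-34305916 and H2-DMb1 on the plus strand at chr17:34152941-34153240.
H2-Aa: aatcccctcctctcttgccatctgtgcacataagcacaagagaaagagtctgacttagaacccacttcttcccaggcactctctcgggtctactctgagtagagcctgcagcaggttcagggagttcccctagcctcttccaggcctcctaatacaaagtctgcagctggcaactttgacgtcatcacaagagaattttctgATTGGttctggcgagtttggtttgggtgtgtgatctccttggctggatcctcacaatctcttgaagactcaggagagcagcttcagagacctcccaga
H2-Eb1: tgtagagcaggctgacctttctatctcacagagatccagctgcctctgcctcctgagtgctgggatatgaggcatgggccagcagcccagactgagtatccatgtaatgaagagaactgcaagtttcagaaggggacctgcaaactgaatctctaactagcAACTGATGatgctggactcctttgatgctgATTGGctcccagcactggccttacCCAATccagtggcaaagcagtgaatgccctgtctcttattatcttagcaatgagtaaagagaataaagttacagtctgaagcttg
H2-DMb1: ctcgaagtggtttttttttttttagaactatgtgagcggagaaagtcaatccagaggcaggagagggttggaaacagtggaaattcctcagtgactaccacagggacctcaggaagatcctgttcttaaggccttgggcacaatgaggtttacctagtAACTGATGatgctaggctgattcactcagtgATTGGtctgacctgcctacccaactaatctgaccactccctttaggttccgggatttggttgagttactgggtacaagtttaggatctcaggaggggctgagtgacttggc
In H2-Eb1 the X box letters start 89 bases and the first Y box letters 59 bases before the start site, with 22 bases between the motifs. In H2-DMb1 they start 92 and 61 bases before it, with 23 bases between them. H2-Aa holds ATTGG 48 bases before its start site and no match to the X box letters. The Y box letters alone are common, in 37.4% of 32851 mouse promoters of the same length, whereas the X box letters are in 0.776% and both motifs in 0.292%. Since the X box letters were taken from these promoters, nothing is read from how rare they are. Of the 11 members of the class II list in the promoter table, 9 hold the Y box letters and 3 the X box letters. A match is a run of letters and no evidence of binding. The build behind the deposited counts is not given in the sources used here.

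The genes highest in dendritic cells relative to both other classes were named by a rule that took the 15 with the largest smaller ratio among those above 50 CPM. Of 6017 genes measured against both, 0.914% were higher than both (55 genes) and 0.233% lower than both (14 genes). Beside the class II genes H2-Aa, H2-Ab1, H2-Eb1, H2-Oa, Cd74 and Ciita, they included the lectins Cd209a, Clec10a and Mgl2, the integrin chain Itgae (CD103), the aminopeptidase Anpep, the phosphatidylserine receptor Timd4, the short-chain fatty acid receptor Ffar2, Fndc5 and Hepacam2. Itgae had 313, 182, 329 and 164 CPM in dendritic cells, against at most 7.25 CPM in microglia and 13.3 to 37.4 CPM in the joint class. Clec10a had 149, 531, 330 and 266 CPM in dendritic cells, against at most 9.31 CPM in microglia and 5.99 to 37.4 CPM in the joint class. Neither gene overlapped between dendritic cells and the other classes.

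Only 6 genes met the same rule in the lower direction. They were Siglech, a lectin of microglia and plasmacytoid dendritic cells, the tetraspanin Cd37, the actin-capping Capg, the adaptor Fyb, the transcription factor Klf2 and the lysosomal protease Ctsl. Siglech had 62.7, 16.6, 23.5 and 37.5 CPM in dendritic cells, against 652, 624, 390 and 639 CPM in microglia and 180, 501, 222 and 494 CPM in the joint class. Of the plasmacytoid list, 0 of 6 measured genes were higher than in microglia and 0 of 9 higher than in the joint class. Those counts are near the 4.65% and 1.41% of all genes. In the lower direction 1 of 6 was called against microglia and 5 of 9 against the joint class, where 4.38% and 1.76% of all genes were. Some of the 5, such as Cox6a2 with pooled levels of 0.937 CPM in dendritic cells and 98.2 CPM in the joint class, passed the filter through the joint class alone. Tlr7, a sensor of RNA in endosomes, had 0 transcripts in all dendritic cell wells, against a pooled level of 61.8 CPM in microglia and 28.9 CPM in the joint class.

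Markers of microglia and macrophages were low in dendritic cells. Against microglia, 4.38% of all genes were called lower (292 of 6671), whereas 16 of the 17 listed microglia genes and 12 of the 16 listed macrophage genes were, every one that passed the filter on low values. The microglia list summed to 969 to 1709 CPM in dendritic cells and 16137 to 19268 CPM in microglia, and the macrophage list to 847 to 2219 CPM and 16335 to 20897 CPM. Csf1r, the receptor of the macrophage growth factor, had 117, 182, 98.8 and 237 CPM in dendritic cells, against 2463, 2074, 1632 and 2389 CPM in microglia. P2ry12, the purinergic receptor that defines microglia, had 23.5, 33.1, 4.70 and 28.5 CPM in dendritic cells, against 790, 661, 550 and 617 CPM in microglia. Sall1, the microglial transcription factor, was at 0 in dendritic cells. These ranges did not overlap.

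Against the joint class 1.76% of genes were called lower (117 of 6664), among them 4 of 12 measured T cell genes and 5 of 9 natural killer cell genes. Against microglia only 1 T cell gene and 2 natural killer genes passed the filter on low values. The others thus passed here through the joint class, and the counts are a description only. The T cell list summed to 51.7 to 282 CPM in dendritic cells and 336 to 3454 CPM in the joint class. Cd3d, a subunit of the T cell receptor complex, was at 0 in 3 dendritic cell sums and at 1.501 CPM in the other, and Nkg7, a granule protein of cytotoxic cells, likewise. The natural killer list summed to 392 to 428 CPM in dendritic cells and 328 to 1823 CPM in the joint class, and in dendritic cells most of that sum was Klrd1 with 248 to 317 CPM, so that the sums of both classes overlap. Of the monocyte list, 4 of 8 measured genes were higher and 3 lower than in microglia, against 4.65% and 4.38% of all genes. Against the joint class 2 of 14 were lower and 0 higher, where 1.76% and 1.41% of all genes were. The monocyte list summed to 994 to 1524 CPM in dendritic cells, against 652 to 1432 CPM in microglia and 3004 to 4138 CPM in the joint class. Plac8 and Ms4a6c, genes also known from monocytes, had pooled levels of 482 and 345 CPM in dendritic cells, against 47.5 and 84.5 CPM in microglia and 777 and 206 CPM in the joint class. The part of monocyte genes in the class differences was not tested. Ly6c2, the surface marker of inflammatory monocytes, had 47.0, 33.1, 23.5 and 113 CPM in dendritic cells, against 1683, 1449, 295 and 1189 CPM in the joint class. Ccr2, the chemokine receptor by which monocytes and some dendritic cells leave the blood, overlapped, with 274, 116, 122 and 316 CPM in dendritic cells and 288, 224, 665 and 526 CPM in the joint class.

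Many genes of motility and shape were higher in dendritic cells than in microglia. Of 19 genes of S100 proteins, annexins and the cytoskeleton, 12 were higher than in microglia, against 4.65% of all genes. Against the joint class 0 were higher and 1, Lgals1, was lower, which is near the 1.41% and 1.76% of all genes. The medians were 2.67 against microglia and 0.12 against the joint class. The summed level of the list differed from microglia mostly at day 7. It was 29776 and 40268 CPM in dendritic cells at day 7, against 8930 and 8943 CPM in microglia. At day 3 it was 37952 and 33511 CPM in dendritic cells, against 30316 and 29130 CPM in microglia. S100a4 had 400, 812, 405 and 320 CPM in dendritic cells, against 0 to 52.7 CPM in microglia and 340 to 811 CPM in the joint class. Crip1, a small LIM protein, had 581, 929, 452 and 503 CPM in dendritic cells, against 4.65 to 24.8 CPM in microglia and 286 to 739 CPM in the joint class. Among 18 measured genes of receptors for chemokines and cytokines, 6 were higher and 6 lower than in microglia, against 4.65% and 4.38% of all genes. Against the joint class 0 of 19 were called in either direction, which is near the share of all genes. Of lysosomal genes and cathepsins, 10 of 19 were lower than in microglia, against 4.38% of all genes, and Ctsd, the aspartic protease cathepsin D, had a pooled level of 133 CPM in dendritic cells and 3435 CPM in microglia.

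Of 23 measured transcription factors of myeloid and dendritic cells, 7 were higher and 5 lower than in microglia, against 4.65% and 4.38% of all genes. Of 22 measured against the joint class, 1 was higher and 1 lower, near the 1.41% and 1.76% of all genes. Id2, which dendritic and innate lymphoid cells need, had 1146, 1527, 754 and 712 CPM in dendritic cells, against 47.1 to 83.8 CPM in microglia and 435 to 1001 CPM in the joint class. Irf4, a factor of the Cd209a kind of dendritic cell, had 39.2, 16.6, 47.0 and 46.5 CPM in dendritic cells and was at 0 in all microglia sums. It had at most 19.9 CPM in the joint class, which overlaps the lowest dendritic cell sum. Irf8, a factor of the Xcr1 kind and also of microglia, had 968, 182, 643 and 294 CPM in dendritic cells and 420, 414, 634 and 580 CPM in microglia, which overlap.

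The 108 wells were not uniform. Wells were grouped by whether the transcripts of 3 marker genes added up to at least 3, and levels of other genes are then given as sums over the wells. Xcr1, Clec9a and Tlr3, genes of the kind that presents on MHC class I, reached that number in 11 wells, 5 at day 7 and 6 at day 3. Cd209a, Clec10a and Mgl2, lectins of the other kind, reached it in 52 wells, 13 at day 7 and 39 at day 3. Only 1 well reached it for both. Single genes of the first group are also present in other classes at low level, as Xcr1 was seen in 24 of 108 dendritic cells and 19 of 194 microglia (7.84% and 4.29% after thinning), so a well is placed by the 3 genes together.

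Genes outside the grouping differed between the 10 wells of the first kind alone and the 51 wells of the second kind alone. Irf8 had 3154 CPM in the Xcr1 group and 92.7 CPM in the Cd209a group. Naaa, a lysosomal amidase, had 1682 CPM in the Xcr1 group and 119 CPM in the Cd209a group. In the Xcr1 group Ppt1, a lysosomal thioesterase, had 1801 CPM and Rab7b, a small GTPase of endosomes, 625 CPM, against 108 CPM and 0 in the Cd209a group. Wdfy4 had 1062 CPM in the Xcr1 group and 301 CPM in the Cd209a group, and Batf3, a factor required by the Xcr1 kind, had 137 CPM in the Xcr1 group and 43.7 CPM in the Cd209a group. These 6 genes were thus all higher in the Xcr1 group. The other direction held for Sirpa, the CD47 receptor, with 0 CPM in the Xcr1 group and 185 CPM in the Cd209a group, and for Napsa with 111 CPM in the Xcr1 group and 691 CPM in the Cd209a group. In the Xcr1 group Tmem176b, a channel-like protein, had 17.1 CPM, S100a4 8.55 CPM and Ifitm1, an interferon-inducible membrane protein, 85.5 CPM, against 537, 301 and 3505 CPM in the Cd209a group. H2-Aa had 14069 CPM in the Xcr1 group and 14569 CPM in the Cd209a group. Of all 108 dendritic cells, 59 had a transcript of Irf8 and 22 had at least 3, against 141 and 68 of 194 microglia, and after thinning it was seen in 25.5% of dendritic cells and 53.4% of microglia.

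Ccr7, Fscn1 and Ccl22, genes of mature dendritic cells on their way to lymph nodes, reached 3 transcripts in 7 wells, 3 at day 7 and 4 at day 3, and none of these was in the Xcr1 or the Cd209a group. Fscn1 bundles actin and Ccl22 is a chemokine for T cells. In these wells, Ccl17, another chemokine for T cells, had 721 CPM, against 0 CPM in the Xcr1 group and 17.5 CPM in the Cd209a group. Of the 48 Ccl17 transcripts of all dendritic cells at day 7, 40 came from 1 well, and day 3 held 2. This level thus rests mostly on 1 cell. Cd83, a surface protein of mature dendritic cells, had 791 CPM in the mature wells, against 103 CPM in the Xcr1 group and 38.5 CPM in the Cd209a group. Socs2, a feedback inhibitor of cytokine signals, had 575 CPM in the mature wells, against 8.55 CPM in the Xcr1 group and 1.75 CPM in the Cd209a group. In the mature wells Ccl5, a chemokine, had 1714 CPM and Tmem123, a surface mucin, 1655 CPM, against 0 and 51.3 CPM in the Xcr1 group and 42.0 and 152 CPM in the Cd209a group. Kmo and Plbd1 had 17.9 and 71.8 CPM in the mature wells, against 128 and 1552 CPM in the Xcr1 group. Il12b had 270 CPM there, all from 1 well. Over whole classes, 4 of 11 measured genes of the mature list were higher in dendritic cells than in microglia, against 4.65% of all genes. Against the joint class 0 of 11 were called higher and 0 lower, near the 1.41% and 1.76% of all genes. The median log2 ratio was -0.285. Ccr7 was seen in 10 of 108 dendritic cells and in 10 of 87 wells of the joint class. After thinning these shares of Ccr7 were 4.90% of dendritic cells and 8.75% of the joint class.

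Of the remaining wells, 39 reached the number for none of these 3 groups. Their median depth was 7133 transcripts, against 10390 in the other 69, so depth moved with being placed, and its part was not tested. Mki67, Top2a and Stmn1, genes of dividing cells, reached 3 transcripts in 13 wells, all 13 of them at day 3 and 6 of them also in the Cd209a group. These 13 wells had a median of 16486 transcripts.

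**Figure D3:**
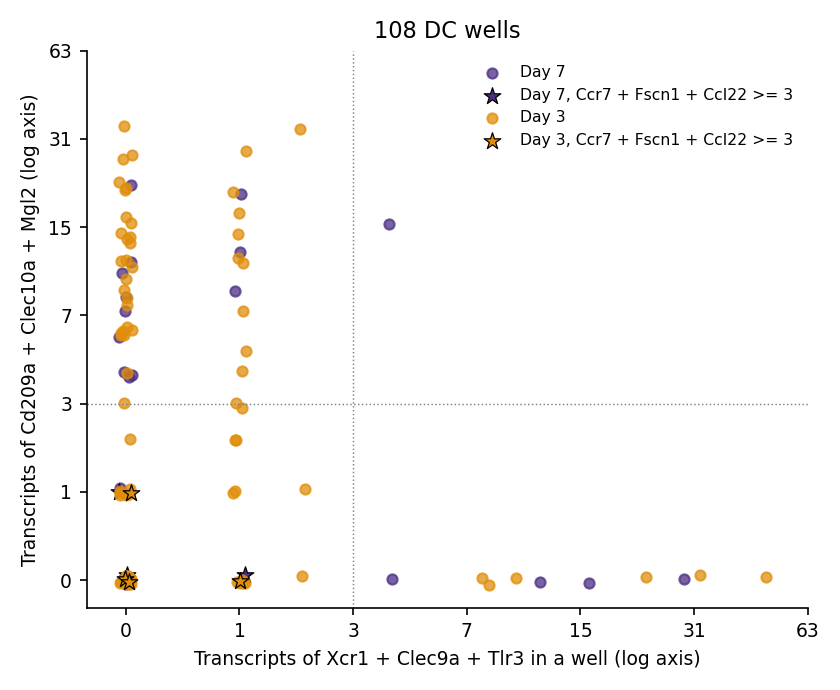
Each point is 1 dendritic cell well, placed by its transcripts of Xcr1, Clec9a and Tlr3 and of Cd209a, Clec10a and Mgl2 (both axes log2 of transcripts + 1), with wells of at least 3 transcripts of Ccr7, Fscn1 and Ccl22 marked; dotted lines show 3 transcripts. Only 1 well lies at or beyond both lines, against 11 along one axis and 52 along the other.

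The authors' clusters split the 108 wells into 69 of cluster 7, 32 of cluster 1 and 7 of cluster 9. Cluster 9 wells held less of the class II list, 32389 CPM in sum against 62113 CPM in cluster 7 and 55884 CPM in cluster 1. They also held more photoreceptor transcripts, 11160 CPM against 1941 and 2057 CPM. The signature column calls 58 of the 108 wells DCs, leaves 43 unassigned and calls 6 lymphocytes and 1 a monocyte. All 11 wells of the Xcr1 group carry the signature, as do 31 of the 52 wells of the Cd209a group. Of the 7 mature wells 2 carry it, and of the 13 wells with genes of dividing cells 4 do.

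Between the days, few genes passed a test in dendritic cells. The 2 sums of day 7 were compared with the 2 sums of day 3 over 2390 genes by edgeR's quasi-likelihood test, and 3 genes, 0.126%, passed an adjusted p of 0.05. At an unadjusted p of 0.05 there were 252, or 10.5%, and for 43.9% of genes the sums of both days did not overlap. With any 1 of the 4 sums left out, 4 to 41 genes passed upward and 3 to 30 downward, the most without P2 of day 7, and the 3 genes were among them each time. Those fits set 1 sum against 2 and take the spread from the 2 alone, so the lone sum is assumed to vary like the others. None of the 3 passed when the sums of all 3 classes were fitted together, where Ifitm1 had an adjusted p of 0.47 in edgeR. Ifitm1 fell at day 7. It had 329 and 381 CPM at day 7, against 2686 and 3127 CPM at day 3, and by library 563, 239, 527 and 134 CPM at day 7, against 3025, 2528, 3203 and 3095 CPM at day 3. No library of one day came near the other. The log2 difference was -3.00 ± 0.23 (SE; edgeR, adjusted p = 0.00186), and a transcript was seen in 12 of 26 wells at day 7 and 75 of 82 at day 3.

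The difference in Ifitm1 was also seen within groups of wells. In the Cd209a group the gene had 502 CPM over 12 wells of day 7, against 4064 CPM over 39 wells of day 3, with well medians of 170 and 3955 CPM. In the mature wells it had 47.1 CPM over 3 wells of day 7, against 2500 CPM over 4 wells of day 3, and in the wells placed in no group 599 CPM over 6 wells, against 2082 CPM over 33 wells. In the Xcr1 group it was low on both days, with 90.6 CPM over 4 wells at day 7 and 82.5 CPM over 6 wells at day 3. Gm7676 fell with it, by 2.81 ± 0.34 on the log2 scale (edgeR, adjusted p = 0.0228), with 70.5 and 116 CPM at day 7 against 589 and 678 CPM at day 3. Of the 25-base words of its transcript 45.4% are also in Ifitm1, so that reads of the 2 genes may not be told apart and Gm7676 is uncertain.

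Fscn1 rose at day 7 by 3.29 ± 0.34 on the log2 scale (edgeR, adjusted p = 0.00996), with 291 and 265 CPM at day 7 against 37.6 and 25.6 CPM at day 3. All 53 transcripts of day 7 came from 2 of 26 wells, and 2 of the 4 libraries of that day had none. The call therefore rests on 2 cells of the mature group, and it was lost in sums thinned to one depth (edgeR, adjusted p = 0.111). Cst3, the protease inhibitor cystatin C, just missed the threshold (log2 difference 1.40 ± 0.20, edgeR, adjusted p = 0.0569). It had 7247, 6968, 9038 and 7679 CPM in the libraries of day 7, against 2187, 3641, 2569 and 3100 CPM in those of day 3, which did not overlap. It passed in 14 of 15 alternative settings, with log2 differences of 1.14 to 1.43 (adjusted p of 5.59e-11 to 0.0874 over edgeR and DESeq2 fits). Within the Cd209a group it had 7435 CPM at day 7 and 2612 CPM at day 3, and in the wells placed in no group 4318 and 1699 CPM at day 7 and day 3. In the Xcr1 group it had 10052 CPM at day 7 and 8720 CPM at day 3, and in the mature wells 6029 CPM at day 7 and 7271 CPM at day 3.

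The genes that define the class did not pass between the days. H2-Aa differed by 0.45 ± 0.22, Cd74 by 0.25 ± 0.20, Flt3 by 0.53 ± 0.32 and Wdfy4 by 0.31 ± 0.27 on the log2 scale (edgeR, adjusted p = 0.507, 0.672, 0.565 and 0.698). Il1b, the inflammatory cytokine, had 518 and 481 CPM at day 7, against 311 and 343 CPM at day 3 (0.66 ± 0.25, edgeR, adjusted p = 0.44). Isg15 and Irf7, genes of the interferon response, had log2 differences of 2.38 ± 0.39 and 2.14 ± 0.45 (edgeR, adjusted p = 0.113 and 0.236) and did not pass either. Isg15 passed in 10 of 13 alternative settings and Irf7 in 6 of 14, with log2 differences of 1.98 to 2.92 and 1.79 to 3.01 (edgeR and DESeq2, adjusted p of 4.14e-05 to 0.131 and 0.00187 to 0.336). Of the 61 Isg15 transcripts of day 7, 43 came from 2 wells. The interferon response list summed to 3874 and 4258 CPM at day 7, against 3271 and 3831 CPM at day 3 in dendritic cells. Of its 13 tested genes 0 were called between the days, near the 0.126% of all genes.

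Transcripts of photoreceptors, the rods and cones, were higher in the sums of day 7 in all classes. All 13 photoreceptor genes tested in dendritic cells had a positive log2 difference, against 1205 of all 2390 genes. The median of the 13 was 1.19, and 0 of them were called, near the 0.126% of all genes. Their list summed to 6157 and 3975 CPM in dendritic cells at day 7, against 997 and 2768 CPM at day 3. In microglia the sums were 5584 and 6362 CPM at day 7, against 1828 and 2706 CPM at day 3, and in the joint class 5035 and 5013 CPM, against 1050 and 2387 CPM. Their part in the differences between days was not tested.

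**Figure D4:**
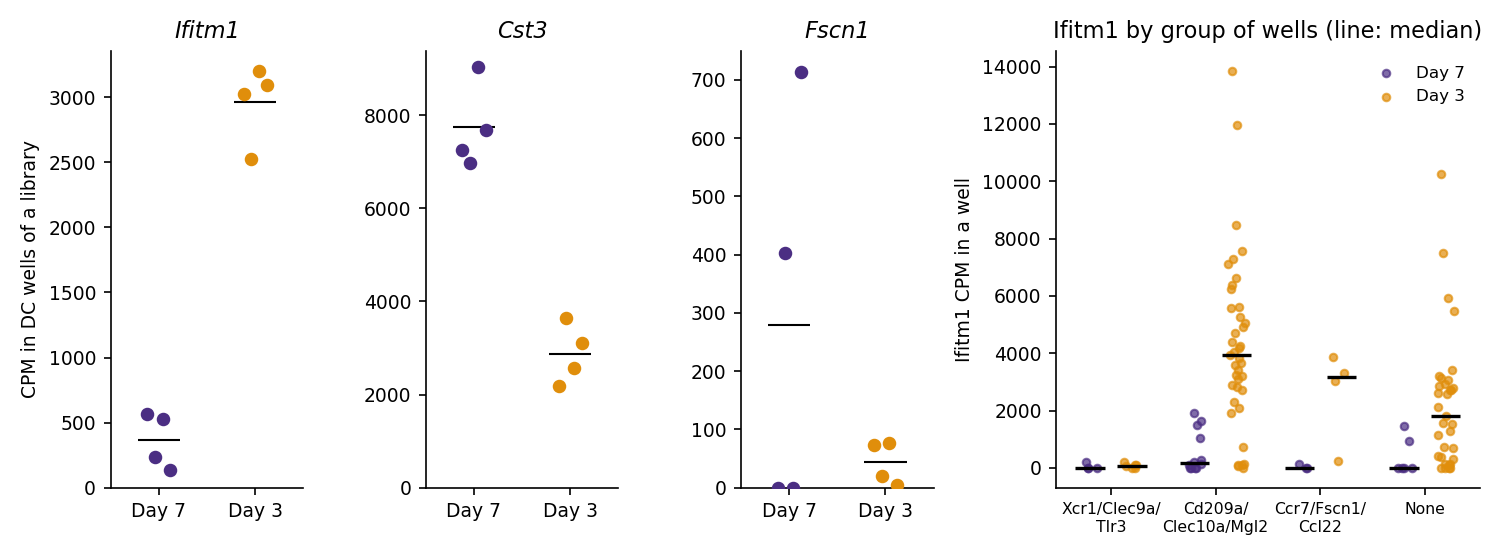
The 3 panels on the left show the level of Ifitm1, Cst3 and Fscn1 (CPM) over the dendritic cells of each library; points are the 4 libraries of day 7 and the 4 of day 3, and lines are means. The panel on the right shows Ifitm1 in each well (CPM) by group of wells and day, with lines at the medians and without the 1 well of both kinds. Ifitm1 lies at 134 to 563 CPM at day 7 and 2528 to 3203 CPM at day 3, and Cst3 at 6968 to 9038 CPM and 2187 to 3641 CPM.

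Whether dendritic cells changed between the days differently from the other classes was tested by the difference of the changes, in an edgeR fit of 12 sums over 3630 genes. Against the joint class 17 genes (0.468%) passed, 7 with a change further up and 10 with a change further down in dendritic cells. Genes of dividing cells led the downward side. Top2a, the topoisomerase of replicating chromosomes, had 7.83 and 16.6 CPM at day 7, against 155 and 67.6 CPM at day 3 in dendritic cells, and 126 and 375 CPM at day 7, against 24.6 and 19.9 CPM at day 3 in the joint class. The days did not overlap in either class, and they ran in opposite directions. The difference of changes was -6.34 ± 0.91 on the log2 scale (edgeR, adjusted p = 0.00018). Stmn1, which frees tubulin for the spindle, gave -5.38 ± 0.79 (edgeR, adjusted p = 0.000194), and 2810417H13Rik, known as a clamp-associated factor of DNA replication, gave a fitted -10.22, which is no bound since dendritic cells of day 7 held 0 transcripts.

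The list of cell cycle genes summed to 784 and 729 CPM at day 7, against 2387 and 1557 CPM at day 3 in dendritic cells. In microglia it summed to 402 and 577 CPM at day 7, against 4154 and 2483 CPM at day 3, and in the joint class to 1666 and 3247 CPM, against 968 and 784 CPM. Of its 17 genes tested for a difference of changes from the joint class, 5 passed and 0 had a positive difference. Among all 3630 genes 0.468% passed and 1794 had a positive difference. Of the wells of the joint class, 32 of 41 at day 7 and 15 of 46 at day 3 were called lymphocytes by signature, so its make-up moved with the day, and its part was not tested. On the upward side, Lyz1, a lysozyme, gave 3.01 ± 0.39 (edgeR, adjusted p = 7.5e-05), a call that was lost with wells whose signature matches their class (edgeR, adjusted p = 0.329). It had 503 and 182 CPM at day 7, against 104 and 233 CPM at day 3 in dendritic cells, which overlap, and 1164 and 965 CPM, against 3920 and 4063 CPM in the joint class. Cst3 gave 1.92 ± 0.31 (edgeR, adjusted p = 0.000952), and the joint class had 1241 and 1086 CPM at day 7, against 2240 and 1218 CPM at day 3. Il1b gave 3.88 ± 0.78 (edgeR, adjusted p = 0.0238), with 12 and 49.8 CPM at day 7, against 115 and 373 CPM at day 3 in the joint class. It was lost with no replicate block and without the sum P2 of day 3 (edgeR, adjusted p = 0.153 and 0.0631). Of the 17 genes, 9 passed with no replicate block, 12 of 16 tested with matching signatures and 9 to 14 with 1 sum left out.

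**Figure D5:**
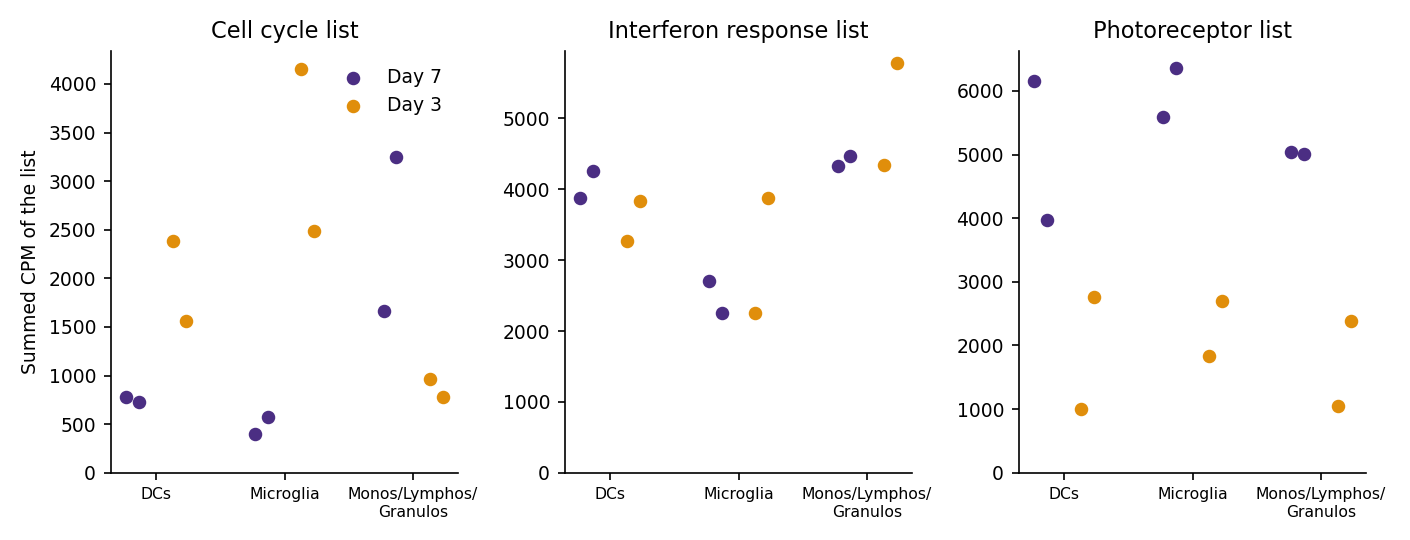
Summed level (CPM) of the lists of cell cycle, interferon response and photoreceptor genes in each class; points are the 2 sums of day 7 and the 2 of day 3, on axes that start at 0. The cell cycle list lies at 729 and 784 CPM at day 7 and at 1557 and 2387 CPM at day 3 in dendritic cells, with the days the other way round in the joint class, and the photoreceptor list lies higher at day 7 in every class.

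Against microglia 30 genes (0.826%) passed, 8 with a change further up and 22 further down. Most of these calls depended on the fit, as 7 of the 30 passed with no replicate block, 9 with matching signatures and 16 to 26 with 1 sum left out. Without TMM scaling the split was 38 up and 10 down, with the median of all genes at 0.30 in place of -0.08 on the log2 scale. Isg15 had 259 and 464 CPM at day 7, against 47.0 and 76.6 CPM at day 3 in dendritic cells, and 47.1 and 41.9 CPM, against 83.0 and 112 CPM in microglia. The difference of changes was 3.16 ± 0.56 (edgeR, adjusted p = 0.00214), and Irf7 gave 3.56 ± 0.73 (edgeR, adjusted p = 0.00718). Actb, the cytoplasmic actin, gave 1.48 ± 0.25 (edgeR, adjusted p = 0.00167). With matching signatures Isg15, Irf7 and Actb were all lost (edgeR, adjusted p = 0.176, 0.401 and 0.272), Actb also with no replicate block (0.106) and Irf7 also without the sum P2 of day 3 (0.169). Most of the genes on the downward side, among them Gm10715 and Gm10800 with -1.88 ± 0.28 and -1.40 ± 0.23, are gene models without a name. Such models took 20.2 and 17.1% of transcripts at day 7, against 21.4 and 19.9% at day 3 in dendritic cells, and 34.6 and 37.7%, against 23 and 21.6% in microglia. The part of this shift in the other differences was not tested.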

How the data were processed

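CD45+ cells were sorted into plates and counted with mCEL-Seq2 in libraries of 192 wells, per the labels' protocols. Reads were aligned with BWA 0.6.2-r126, per the submitters' processing notes (the version as those notes give it). The sources used here name neither the genome build nor how reads were assigned to genes. The deposited retina table holds estimated counts, the transcripts of each gene in each well, which the authors derived from molecular identifiers and did not normalize, and the library tables hold the same values for all wells. Class, cluster and signature were taken as other values from the authors' deposited annotation. The annotation and the library titles number the P2 libraries differently; each library was joined by prefix, group and order, and all rows compared between the tables were equal. A further 122 well columns of that table, from retinas without a lesion, were not used.

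Annotated wells entered without a further filter, and doublets were not called, as the sort put 1 cell in a well. Estimated counts were summed per class, prefix and day, rounded, and scaled to CPM. Classes were compared by log2 ratios with 5 CPM added, 2-fold in all 4 sums, without a test. Days were compared with edgeR 4.0.16 (filterByExpr, TMM, robust quasi-likelihood, Benjamini-Hochberg, 0.05) in R 4.3.3, and changes of 2 classes by an interaction with the sum of origin as a block, since the classes share a library. An SE is the log2 ratio over the square root of F. The labels do not say that prefixes are separate mice. Shares and depth were compared by exact permutation tests over libraries, which count libraries of the same prefix and day as separate units. On simulated counts, the test between days recovered 86% of 4-fold and 29% of 2-fold changes over 2390 genes, the interactions 19% and 21% of 4-fold changes over 3630 genes.

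Genes were named by a rule: 35 genes whatever their values, the 15 highest and up to 8 lowest against both classes, the called genes between days and the top 5 of each interaction. A further named gene, Tlr7, and the lists' members were chosen after their values were seen. The members and all 30 gene lists were chosen with earlier results of these data known, and 13 of 399 list genes are not analysed here. Alternatives covered scaling, low-value filters, the added CPM, fold, depth limits, the signature, DESeq2 1.42.0 and leaving out each library or sum.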

Additional observations from a re-analysis of the deposited data

Results flagged for a closer look

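These results stood out because the change from day 3 to day 7 differed between dendritic cells and another class by a test of the difference itself, the edgeR interaction. Against microglia 30 genes passed. The 5 with the smallest p were the unnamed gene models Gm10715 (-1.88 on the log2 scale), Gm10719 (-1.73), Gm10717 (-1.63) and Gm10800 (-1.40), all with a change further down in dendritic cells, and Actb (1.48), with a change further up. Against the joint class 17 genes passed. The 5 with the smallest p were Lyz1 (3.01) and Cst3 (1.92), further up in dendritic cells, and 2810417H13Rik (-10.2), Top2a (-6.34) and Stmn1 (-5.38), further down.

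No library stood apart from the other 3 of its day in the shares and levels examined, 28 groups of 4 in all.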

How the results depend on the processing

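By exact permutation, the difference in the share of dendritic cells among annotated wells was -24.7 to -20.8 points with 1 library left out (adjusted p = 0.0714, the p then being at its smallest possible), and -23.1 with the replicate block, that is permuted within prefix (p = 0.0556, adjusted 0.0714). The higher transcript number against the joint class missed the threshold without mitochondrial transcripts (log2 0.59, adjusted p = 0.0521). No single value changed sign, while the balance of higher and lower counts turned in the cases given here.

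Counts of genes depended on the settings. With 20 CPM added, 189 genes were higher and 177 lower than in microglia, 53 higher and 46 lower than in the joint class, and 3 lower than both; at 4-fold the counts were 107 and 111, 17 and 32, and 14 higher and 0 lower than both. With matching signatures 158 were higher than in the joint class. With 1 sum left out, 144 to 207 were higher and 172 to 245 lower than in the joint class, 68 to 97 higher and 20 to 33 lower than both, each range's top being without P1 of day 3 except the last, without P2 of day 7. Fewer sums have to meet the rule there.

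Between days (1 up, 2 down), 3 rose without TMM; 14 rose and 22 fell without the filter; 9 rose and 9 fell with the replicate block; 4 to 41 rose and 3 to 30 fell with 1 sum left out; 3 rose and 5 fell over single libraries; 0 rose in thinned sums; 10 rose with signature wells; 2 rose within depth limits and likewise without mitochondrial genes; 9 rose and 5 fell in DESeq2; 8 rose without cluster 9, an alternative added after seeing the data; and 2 rose and 0 fell with all 3 classes in one fit, where Ifitm1 had an adjusted p of 0.47. Prefixes of both days share only a number (correlation of deviations -0.02 over 2390 genes, 2 pairs).

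Interactions with the joint class (7 up, 10 down) gave 4 and 5 with no replicate block, 14 to 42 and 7 to 18 with 1 sum left out, 20 up with signatures and 6 down in DESeq2. Those with microglia (8 up, 22 down) gave 4 and 3 with no replicate block, 38 and 10 without TMM, 10 to 17 and 18 to 28 with 1 sum left out, and 3 and 9 with signatures. The cause of these differences was not tested. With 26 dendritic cells at day 7, changes of 2-fold between days were often not detectable, and the interactions missed most changes of 4-fold in simulated counts.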

Other observations

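Enzymes of tryptophan breakdown downstream of its first step were present in dendritic cells, while Ido1 and Ido2 of that first step were not seen. Kmo had a pooled level of 214 CPM in dendritic cells, against 4.12 CPM in microglia and 48.1 CPM in the joint class. Kynu, the kynureninase, had 40.3 CPM in dendritic cells, against 2.06 CPM in microglia and 11.5 CPM in the joint class, and Haao, which acts after it, 45.9 CPM in dendritic cells, against 19.6 CPM in microglia and 9.62 CPM in the joint class. Ido1 and Ido2, which open the ring, had 0 transcripts in all classes. Kynu was at least 2-fold higher than microglia in all 4 sums and Haao higher than the joint class, as was Kmo than both.

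Adhesion genes also divided. Itgb7 and Itga4, chains of integrins that bind the gut addressin and the vascular ligand Vcam1, had 176 and 162 CPM in dendritic cells, against 2.06 and 23.7 CPM in microglia and 152 and 216 CPM in the joint class. Epcam, an adhesion molecule of epithelia and Langerhans cells, had 93.8 CPM in dendritic cells, against 1.03 CPM in microglia and 15.4 CPM in the joint class. Itgal, an integrin chain of leukocytes, had 8.44 CPM in dendritic cells, against 11.3 CPM in microglia and 244 CPM in the joint class. These genes were picked from fixed lists after their values were seen and carry no test.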
